A study of Mus musculus with 12 samples.

Results

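The results below describe how ear skin of mice without Toll-like receptor 9 (Tlr9-/-) responded to imiquimod (IMQ), a drug applied as a cream to model psoriasis in mice. The members are 2 of the 12 arrays of the series: 1 array of Tlr9-/- skin taken 4 h after IMQ and 1 array of untreated Tlr9-/- skin, taken at 0 h. They were chosen by genotype and treatment as labelled, and the untreated array was also set against the other 4 untreated arrays. The other groups were WT, Tlr7-/-, Tlr7-/-Tlr9-/- and Card14-/- skin, each with 1 untreated array. IMQ arrays numbered 1 each for WT and Tlr7-/- and 2 each for Tlr7-/-Tlr9-/- and Card14-/-. All mice were of the C57BL/6J strain. The treated mice received 62.5 mg of cream with 5% IMQ once on both ears, and the labels name no vehicle cream for the untreated mice, so the cream base and the drug cannot be told apart. RNA of whole ear skin from 6 to 8 mice was pooled for each array, so an array holds no spread between mice. Each Tlr9-/- condition was 1 pool here.

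Toll-like receptors 7 and 9 are sensors of nucleic acids in endosomes. TLR7 detects single-stranded RNA and also small imidazoquinolines such as IMQ, and TLR9 detects DNA with unmethylated CpG. Both signal through the adaptor MyD88, and plasmacytoid dendritic cells use them to make type I interferon, which turns on the interferon-stimulated genes in surrounding cells. Card14 encodes a keratinocyte scaffold protein that activates NF-kB.

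Labelled RNA was hybridised to 1-colour oligonucleotide arrays. Each array carried 59305 spots other than controls, of which between 60.1% and 65.7% were well above background, with 0 spots at saturation. Before normalization, the processed signal had a 75th percentile of 1112 on the untreated Tlr9-/- array and 568.6 on the IMQ Tlr9-/- array. The range was 1070 to 1236 in untreated skin and 527.4 to 778.9 in treated skin. Every treated array was thus dimmer than every untreated array, so treatment and signal strength before normalization cannot be told apart. Slide 1 held both Tlr9-/- arrays, the other 4 untreated arrays and treated WT and Tlr7-/- skin, and slide 2 held the 4 arrays of treated Tlr7-/-Tlr9-/- and Card14-/- skin. Wherever treated levels or responses of those 2 genotypes are compared below, genotype and slide cannot be told apart. Levels below are log2 normalized signals, and 24068 genes were tested, each on 1 probe. A difference was called where limma's adjusted p was under 0.05 and the size was at least 1 on the log2 scale.

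Because Tlr9-/- had 1 array in each condition, the response (IMQ minus untreated Tlr9-/-) was tested with the spread between the repeat IMQ arrays of the other genotypes. Those repeats may be technical, since the labels do not say whether they held RNA of separate pools. The SE of each response and the adjusted p of each comparison with WT use this spread and may miss variation between pools. By the response test 1243 genes (5.16%) were higher and 940 (3.91%) lower after IMQ. With the spread of an additive fit of genotype and treatment in place of the repeat arrays, 0 genes passed in either direction, which ends every call given below for this test. The IMQ Tlr9-/- array was also tested against all 5 untreated arrays, where 1150 genes (4.78%) were higher and 938 (3.90%) lower. A gene is said to have risen or fallen below only if both tests called it in the same direction, which held for 923 genes that rose (3.83%) and 566 that fell (2.35%). These shares of all genes are the background of every list count below, and a list with 1 or 2 calls can lie near them. The tests share the IMQ Tlr9-/- array and the untreated Tlr9-/- array and are not independent. The median SD was 0.059 between repeat IMQ arrays and 0.149 between the 5 untreated arrays, so the second test had the wider error, and its adjusted p is the one given for each gene. Without either 1 of the IMQ Card14-/- arrays the first test called 0 genes, while the second test does not use those arrays. The median response over all genes was -0.10.

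The targeted genes were read first. Tlr9 stood at 10.95 on the untreated and 11.05 on the IMQ Tlr9-/- array, against 11.05 to 11.31 on the other untreated arrays, and IMQ WT skin had 11.39. At this probe (mm9 chr9:106128979-106129038) the knockout arrays were therefore not low, the untreated Tlr7-/-Tlr9-/- array with 11.08 included, and the probe does not check the label. The labels do not say which exons were removed. Tlr7, which these mice keep, stood at 7.36 and 7.38, against 5.49 on untreated Tlr7-/- and 5.34 on untreated Tlr7-/-Tlr9-/-. Card14 stood at 11.33 and 11.65, against 9.89 on untreated Card14-/-. The keratin gene Krt14, a marker of basal keratinocytes, was at 18.29 on both Tlr9-/- arrays and between 18.20 and 18.32 on the other 4 untreated arrays. All arrays were quantile normalized to a common distribution of signal, so like levels of so bright a gene do not show like keratinocyte content.

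Untreated Tlr9-/- skin differed from the other 4 untreated arrays in 6 genes that were higher (0.0249%) and 1 that was lower (0.00415%), with limma's adjusted p under 0.05. Those with gene symbols included Olfr556, an olfactory receptor gene, at 5.10 against 1.84 to 1.90 on the other untreated arrays. Sntg1, which encodes a syntrophin, was at 4.72 against 1.83 to 1.88. These other values were below the lowest signal well above background on their arrays, which was 3.63 to 4.13. The 2 calls thus rest on the narrow spread of background signal. Both genes were off on most arrays and on again elsewhere: Olfr556 reached 4.74 on 1 of the IMQ Tlr7-/-Tlr9-/- arrays, and Sntg1 reached 6.70 on the IMQ WT array. The count of higher genes was 0 without the untreated WT array and 2 without the untreated Card14-/- array, and both counts were 0 with 75th percentile scaling, with normexp background correction and in the deposited table.

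A further set of genes was raised in untreated Tlr9-/- skin without passing that test. Cxcl9, a chemokine induced by interferon gamma, was at 9.07 on the untreated Tlr9-/- array, against 6.31 in WT, 6.11 in Tlr7-/-, 6.73 in Tlr7-/-Tlr9-/- and 6.12 in Card14-/-. The difference of 2.75 had an adjusted p of 0.246. Cxcl10, the other interferon-induced ligand of CXCR3, was at 9.40 against 7.13, 6.70, 7.34 and 6.99 in the same order, a difference of 2.35 (adjusted p = 0.267). The untreated Tlr9-/- value lay above every other untreated array for both genes. Ccl5, a chemokine for T cells and monocytes, was at 9.10 against 7.55 to 7.96. The interferon-inducible GTPase genes followed the same pattern, with Iigp1 at 10.84 against 9.07 to 9.57, Gbp2 at 10.82 against 9.16 to 9.75, and Igtp at 11.12 against 9.72 to 10.31. Of the 55 interferon-stimulated genes tested, 26 (47.3%) had their highest untreated level in Tlr9-/- skin, against 21.5% of all genes. Because the untreated array enters every response, these genes are described below by their levels as well as by their response.

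Among the named genes well above background on both Tlr9-/- arrays, and leaving out probes with the repeat GAGAGAG, which are described further on, the chemokine genes Cxcl1 and Ccl20 had the largest rises. Cxcl1, which attracts neutrophils, stood at 7.0 in untreated WT, 6.93 in Tlr7-/-, 6.22 in Tlr9-/-, 6.61 in Tlr7-/-Tlr9-/- and 6.24 in Card14-/- skin. After IMQ it was at 10.29 in Tlr9-/- and between 10.49 and 10.99 on the other 6 IMQ arrays. Treated and untreated arrays did not overlap in any genotype, and the Tlr9-/- level was the lowest of the treated ones. The response was 4.07 ± 0.08 (SE), a 16.8-fold rise, and the difference from the 5 untreated arrays was 3.69 ± 0.34 (adjusted p = 0.00372). Its probe lies at chr5:91322080-91322139 of mm9.

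Ccl20, the ligand of CCR6 that attracts Th17 cells and dendritic cells, went from 6.32 to 10.26 in Tlr9-/- skin. The other untreated arrays held 5.59 to 7.22 and the other IMQ arrays up to 11.52, and here too the treated Tlr9-/- array was the lowest of its kind. The response was 3.95 ± 0.06, and the difference from the untreated arrays was 3.87 ± 0.53 (adjusted p = 0.00849).

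Of the 19 CC chemokine genes tested, 6 rose and 0 fell, and their median response was 0.58. The monocyte chemokines moved together. Ccl7 went from 9.05 to 11.26 (adjusted p = 0.0134), Ccl2 from 8.94 to 11.05 (adjusted p = 0.0183) and Ccl12 from 7.59 to 9.67 (adjusted p = 0.00406). Their responses in Tlr9-/- skin were 2.21, 2.11 and 2.08, close to the 2.22, 1.93 and 2.48 measured in WT and above the 0.98, 1.32 and 1.03 in Tlr7-/- skin, whose difference from Tlr9-/- was not tested. The macrophage inflammatory protein genes Ccl4 and Ccl3 rose from 5.23 to 7.45 (adjusted p = 0.047) and from 5.24 to 6.63 (adjusted p = 0.049). Both lost the call without any 1 of the untreated Tlr7-/-, Tlr9-/-, Tlr7-/-Tlr9-/- or Card14-/- arrays, which left 4 of 19. No filter on dim probes also ended both calls, normexp background correction and the deposited table that of Ccl3, and the mean over probes that of Ccl4.

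The sequence just before the start of Cxcl1 holds a kB core, the letters recognised by NF-kB. The 160 bases before the RefSeq start (GRCm38.p6, chr5:90891085-90891244, plus strand) hold the core, GGGA and TTCC with any 2 bases between them, and the capitals mark it with the overlapping match of the other strand.
Cxcl1: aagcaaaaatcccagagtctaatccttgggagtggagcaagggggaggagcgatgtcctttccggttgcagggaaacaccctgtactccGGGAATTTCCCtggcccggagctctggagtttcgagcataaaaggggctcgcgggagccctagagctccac

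The core was searched on both strands of windows from 250 bases before to 50 bases after each start. It was found in 1.63% of 27025 gene symbols, in 6 of the 30 NF-kB list genes with a window, and in 1 of 8 of those that rose, which was Cxcl1. A match describes letters only.

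Among NF-kB subunits and early targets, 9 of 35 genes rose and 0 fell, with a median response of 0.53, and 28 of 35 (80.0%, against 28.1% of all genes) were higher on the IMQ Tlr9-/- array than on all 5 untreated arrays. Besides Cxcl1 and Ccl20 these were the dendritic cell activation marker Cd83, at 8.91 before and 10.90 after IMQ (adjusted p = 0.00338), the NF-kB regulator Bcl3, at 9.68 and 11.34 (adjusted p = 0.00961), and the cytokine gene Tnf, at 6.27 and 7.88 (adjusted p = 0.00398). The adhesion molecule gene Icam1 went from 11.04 to 12.10 (adjusted p = 0.00825), the NF-kB inhibitor gene Tnip3 from 5.37 to 6.57 (adjusted p = 0.00769) and the prostaglandin synthase gene Ptgs2 from 5.80 to 7.15 (adjusted p = 0.0412). The endothelial selectin gene Sele was not well above background before IMQ and rose at least 1.97-fold. Ptgs2 lost the call without the untreated WT, Tlr9-/- or Tlr7-/-Tlr9-/- array, and Sele without the untreated Tlr7-/- or Card14-/- array. Normexp background correction ended the calls of Ptgs2, Sele and Tnip3, the deposited table those of Sele and Tnip3, no filter on dim probes that of Ptgs2, and the mean over probes that of Icam1. The other probe of Tnf gave a response of 0.77.

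In the TNF superfamily 4 of 17 genes rose and 0 fell. The costimulatory receptor gene Tnfrsf9 went from 7.24 to 9.06 (adjusted p = 0.00866) and the TWEAK receptor gene Tnfrsf12a from 10.79 to 12.09 (adjusted p = 0.0452, lost without the untreated Tlr9-/-, Tlr7-/-Tlr9-/- or Card14-/- array). The RANKL gene Tnfsf11 reached 4.82, a rise of at least 1.64-fold, against 6.86 on the IMQ WT array, where its response was 4.70. The difference between those 2 responses had an adjusted p of 0.0582. Tnfsf11 lost the call with normexp background correction and in the deposited table, and Tnfrsf12a with 75th percentile scaling and no filter.

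Immediate early genes, which encode the first transcription factors and feedback proteins made after a stimulus, gave calls in 1 direction. Of 34 tested, 8 rose and 0 fell, 29 were above all 5 untreated arrays (85.3%, against 28.1% of all genes), and the median response was 0.80. Fosl1, an AP-1 subunit, went from 5.16 to 8.12, with 5.28 to 6.16 on the other untreated arrays and an adjusted p of 0.0149. The activity-induced gene Arc went from 7.65 to 10.08, the highest of the 7 IMQ arrays, of which the others held 9.26 to 9.73 (adjusted p = 0.0167). The nuclear receptor genes Nr4a1 and Nr4a2 rose by 2.01 (adjusted p = 0.0113) and 1.46 (adjusted p = 0.0146). The AP-1 genes Jun and Fos rose by 1.24 (adjusted p = 0.00417) and 1.52 (adjusted p = 0.0426), and Maff and the ERK phosphatase gene Dusp5 by 1.02 (adjusted p = 0.00372) and 1.09 (adjusted p = 0.0201). Fos lost the call without any 1 untreated array other than WT and with no filter on dim probes, Maff with 75th percentile scaling, normexp background correction and the deposited table, and Dusp5 with the mean over probes. Fosb had a response of 2.22 and did not pass against the untreated arrays (adjusted p = 0.0507).

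Of 15 genes of EGF receptor ligands and their feedback, 4 rose and 0 fell. Epgn, an EGF receptor ligand of the epidermis, was not well above background before IMQ, at 3.07, and reached 6.73, a rise of at least 6.15-fold (adjusted p = 0.0194). The ligand genes Hbegf and Ereg went from 8.78 to 10.16 (adjusted p = 0.0213, lost with the mean over probes) and from 11.77 to 13.08 (adjusted p = 0.0109), the latter above the 12.56 to 12.78 of the other 6 IMQ arrays. The ERK phosphatase gene Dusp6 went from 11.63 to 12.77 (adjusted p = 0.00466). Areg, a further ligand, had a response of 2.18 from an untreated level of 5.05, the lowest of the 5 untreated arrays, and did not pass against them (adjusted p = 0.10).

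The interleukin genes gave fewer calls. Il20, a keratinocyte cytokine of the psoriasis axis, rose from 5.0 to 7.0 (adjusted p = 0.00551), with 4.83 to 5.43 on the other untreated arrays. Lif, of the IL-6 family, rose from 5.57 to 7.43 (adjusted p = 0.021). Il22ra1, the keratinocyte receptor chain for IL-22, rose from 7.85 to 9.39 (adjusted p = 0.0049), and in WT skin it reached 10.09. Casp4, an inflammatory caspase gene, rose by 1.13 (adjusted p = 0.011). Il25, an epithelial alarmin, was not well above background in untreated Tlr9-/- skin and rose at least 3.67-fold (adjusted p = 0.0473), a call lost without any 1 of the other 4 untreated arrays. Normexp background correction ended the calls of Il20 and Il25, no filter those of Il25 and Lif, and the mean over probes that of Lif.

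For Il1b the untreated level entered the response as well. It stood at 6.80 in untreated WT, 5.97 in Tlr7-/-, 4.72 in Tlr9-/-, 5.42 in Tlr7-/-Tlr9-/- and 5.17 in Card14-/- skin, and at 7.84 after IMQ in Tlr9-/- against 6.83 to 7.55 on the other 6 IMQ arrays. The Tlr9-/- pair thus held the lowest untreated and the highest treated level. The response of 3.12 exceeded the 0.76 of WT (difference 2.37, adjusted p = 0.038), while the difference from the 5 untreated arrays, 2.23 ± 0.73, did not pass (adjusted p = 0.0761). These values come from 1 of its probes. The other gave a response of 0.94, and with the mean over both probes the difference from WT did not pass. Il6 was listed likewise, with a response of at least 1.55-fold from a level at background and an adjusted p of 0.229 against the untreated arrays.

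**Figure D1:**
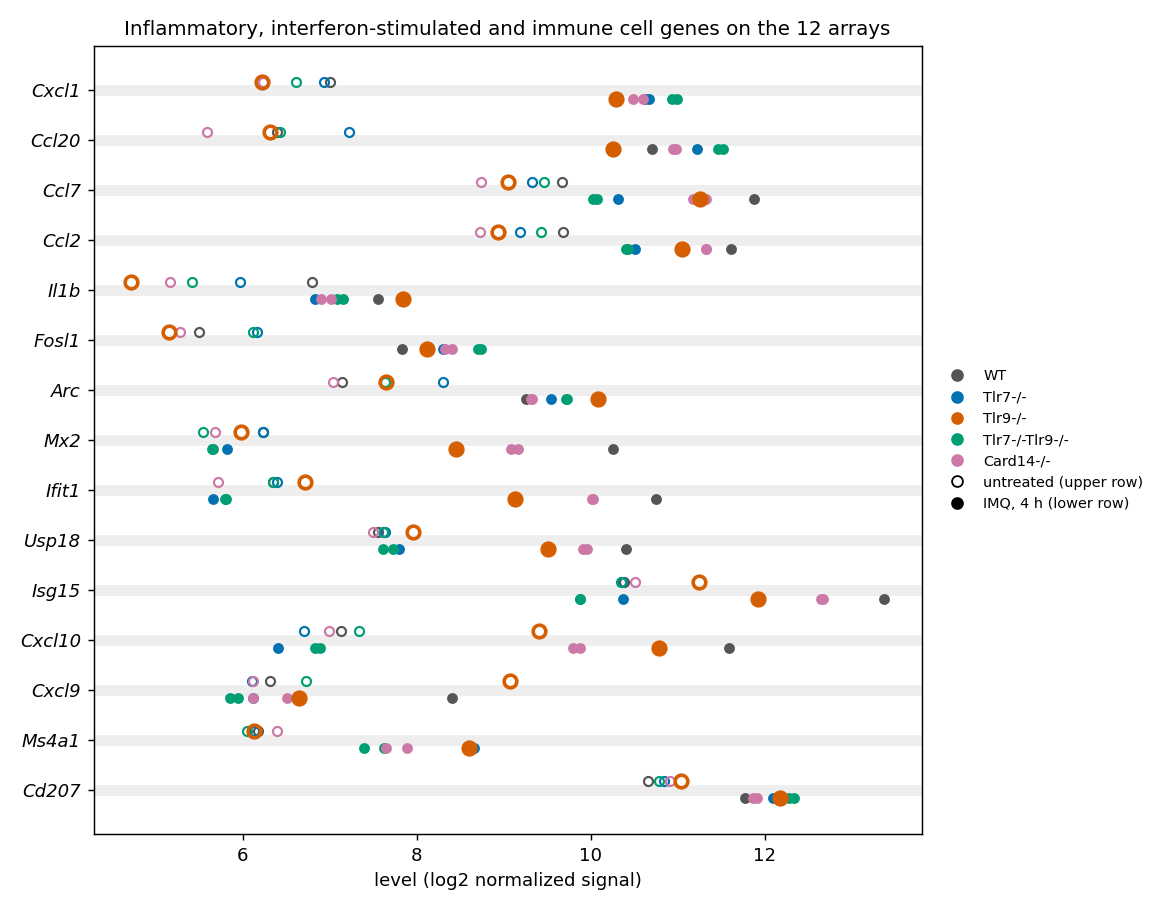
Levels (x axis, log2 normalized signal) of 15 genes on the 12 arrays. Open circles in the upper row of each gene are the 5 untreated arrays, filled circles in the lower row the 7 IMQ arrays, coloured by genotype, with no error bars because each point is 1 array of pooled RNA. Cxcl1 and Ccl20 separate treated from untreated in every genotype, Mx2 and Ifit1 of treated Tlr9-/- skin (8.45 and 9.13) lie between WT (10.26 and 10.75) and Tlr7-/- (5.82 and 5.66), and Cxcl9 and Cxcl10 of untreated Tlr9-/- skin (9.07 and 9.40) stand above the other open circles.

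The interferon-stimulated genes rose in part. Of 55 tested, 8 rose and 0 fell, 11 passed against the 5 untreated arrays alone, and the median response was 0.21. The 8 were the antiviral effector genes Oasl1, Mx2, Ifit1, Rsad2, Mx1 and Cmpk2, the ISG15 protease gene Usp18 and the Schlafen gene Slfn5. This count was 8 without each untreated array in turn and 7 without a filter on dim probes.

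Ifit1, an inhibitor of viral mRNA translation, stood at 6.35 in untreated WT, 6.40 in Tlr7-/-, 6.72 in Tlr9-/-, 6.35 in Tlr7-/-Tlr9-/- and 5.72 in Card14-/- skin. After IMQ it was at 10.75 in WT, 5.66 in Tlr7-/-, 9.13 in Tlr9-/-, 5.81 and 5.80 in Tlr7-/-Tlr9-/-, and 10.02 and 10.03 in Card14-/-. The treated Tlr9-/- array lay above all untreated arrays, below WT and Card14-/-, and far above both genotypes without Tlr7. The response was 2.41 ± 0.05 and the difference from the untreated arrays 2.82 ± 0.34 (adjusted p = 0.00617).

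Mx2, a dynamin-like antiviral GTPase gene, had the same order, going from 5.98 to 8.45 in Tlr9-/- (adjusted p = 0.00585) against 10.26 in treated WT and 5.82 in treated Tlr7-/- skin. Oasl1 went from 6.71 to 9.40 (adjusted p = 0.00699), Rsad2 from 5.84 to 7.93 (adjusted p = 0.0216) and Mx1 from 6.30 to 8.22 (adjusted p = 0.0192). Usp18 rose by 1.55 (adjusted p = 0.00398), Cmpk2 by 1.51 (adjusted p = 0.00792) and Slfn5 by 1.07 (adjusted p = 0.00466). In Slfn5 the responses of WT, 1.15, and Tlr9-/- were alike in size, and its difference between them had an adjusted p of 0.848. Slfn5 lost the call with the mean over probes and Rsad2 with no filter.

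Set against WT, 0.823% of all genes were called as having a smaller response in Tlr9-/- and 0.291% a larger one. Of the 55 genes, 14 were called smaller and 0 larger. Among them the response of Ifit1 was smaller by 1.99 (adjusted p = 0.0214), of Mx2 by 1.56 (adjusted p = 0.0412) and of Isg15 by 2.31 (adjusted p = 0.0178). Each of these counts became 0 without any 1 of the 4 repeat IMQ arrays, which supply the spread of that test. The medians of the list's response were 1.18 in WT, 0.84 in Card14-/-, 0.21 in Tlr9-/-, -0.18 in Tlr7-/- and -0.27 in Tlr7-/-Tlr9-/-. Gene by gene, the Tlr9-/- response was below that of WT in 50 of 55 genes and above that of Tlr7-/- in 44, where over all genes tested this held for 10820 and 11078 of 24068. The comparison with WT rests on levels as well: 51 of the 55 genes were lower on the IMQ Tlr9-/- than on the IMQ WT array, both on slide 1, as were 10813 of all 24068 genes.

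For several of these genes the raised untreated level entered the smaller response. Isg15, a ubiquitin-like protein gene, was at 11.24 in untreated Tlr9-/- against 10.35 to 10.51 elsewhere, and reached 11.92 after IMQ against 13.37 in WT. Its response was 0.68, and it passed against the untreated arrays (1.35, adjusted p = 0.0435). Iigp1 went from 10.84 to 10.65, Gbp2 from 10.82 to 9.90 and Igtp from 11.12 to 10.63, while in WT Iigp1 reached 12.12 and Igtp 11.71. Cxcl10 went from 9.40 to 10.78, against 11.59 in treated WT and 6.41 in treated Tlr7-/- skin, and did not pass against the untreated arrays (adjusted p = 0.0612). Cxcl9 went the other way, from 9.07 to 6.65, within the range of the other untreated arrays, whereas in WT it went from 6.31 to 8.41. Its difference from the 5 untreated arrays was -0.22 (adjusted p = 0.90).

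**Figure D2:**
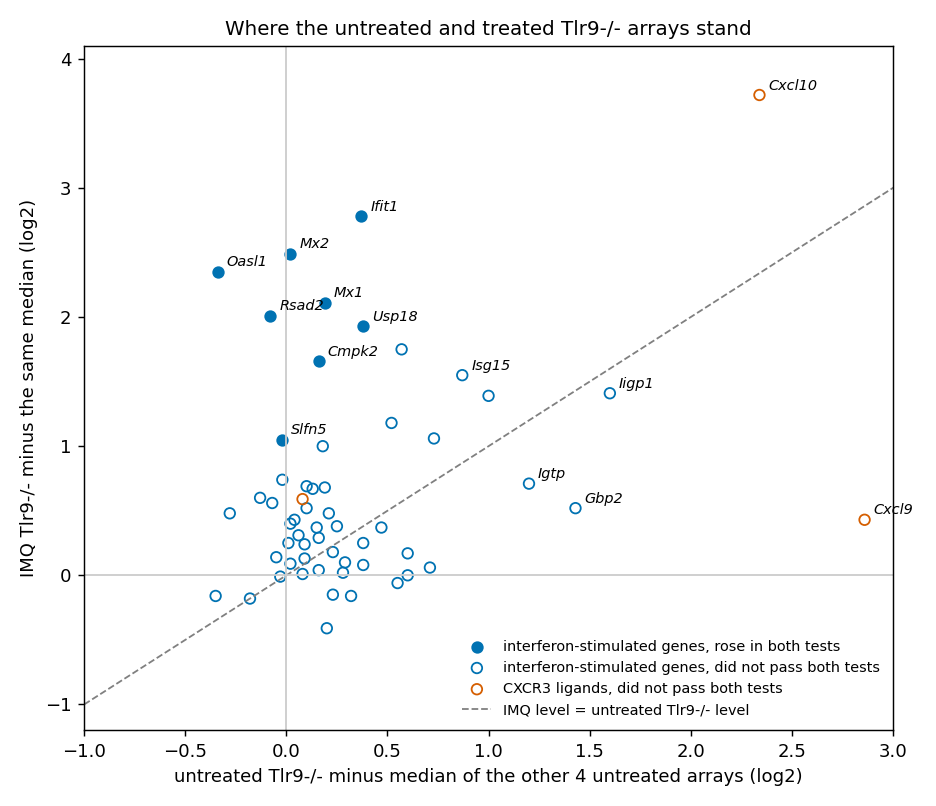
Each point is 1 of 55 interferon-stimulated genes or 3 CXCR3 ligand genes. The x axis gives the untreated Tlr9-/- level and the y axis the IMQ Tlr9-/- level, each minus the median of the other 4 untreated arrays (log2). Filled points passed both tests, and the dashed line marks equal levels before and after IMQ. The 8 genes that rose lie near 0 on the x axis, while Cxcl9, Gbp2, Igtp and Iigp1 lie to the right and below the line.

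The promoters of these genes are shown as examples that carry an interferon-response element, and were picked for carrying it. The core of the interferon-stimulated response element, 2 copies of GAAA with any 2 bases between them, was searched on both strands of the window described for Cxcl1, and the capitals mark it in the 160 bases before the RefSeq start (GRCm38.p6). The first 3 genes rose in both tests, and the last 3 were high in untreated Tlr9-/- skin. The positions are Ifit1 chr19:34640729-34640888 (plus strand), Rsad2 chr12:26456453-26456612 (minus strand), Slfn5 chr11:82951942-82952101 (plus strand), Isg15 chr4:156200819-156200978 (minus strand), Gbp2 chr3:142620503-142620662 (plus strand) and Igtp chr11:58199396-58199555 (plus strand).
Ifit1: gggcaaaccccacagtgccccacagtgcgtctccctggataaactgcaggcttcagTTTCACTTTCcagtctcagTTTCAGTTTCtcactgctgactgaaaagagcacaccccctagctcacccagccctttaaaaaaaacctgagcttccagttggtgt
Rsad2: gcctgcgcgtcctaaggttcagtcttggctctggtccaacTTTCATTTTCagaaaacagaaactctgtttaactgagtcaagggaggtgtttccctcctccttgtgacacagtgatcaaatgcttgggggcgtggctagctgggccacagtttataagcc
Slfn5: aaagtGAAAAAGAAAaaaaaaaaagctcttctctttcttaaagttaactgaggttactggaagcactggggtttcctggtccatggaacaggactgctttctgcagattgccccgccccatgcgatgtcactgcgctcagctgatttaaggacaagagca
Isg15: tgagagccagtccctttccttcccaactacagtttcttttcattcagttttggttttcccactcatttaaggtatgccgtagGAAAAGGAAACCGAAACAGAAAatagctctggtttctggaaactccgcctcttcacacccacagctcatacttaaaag
Gbp2: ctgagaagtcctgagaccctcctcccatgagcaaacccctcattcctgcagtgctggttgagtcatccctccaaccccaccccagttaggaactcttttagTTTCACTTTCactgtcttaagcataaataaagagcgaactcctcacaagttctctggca
Igtp: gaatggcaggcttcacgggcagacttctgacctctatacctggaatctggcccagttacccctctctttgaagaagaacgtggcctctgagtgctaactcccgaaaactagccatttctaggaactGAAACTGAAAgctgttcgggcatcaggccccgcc

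The core was present in 3.99% of all 27025 symbols and in 20 of the 40 interferon-stimulated genes with a window. It was in 3 of 5 that rose and in 17 of 35 that did not, so its presence did not separate them here.

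The receptors and adaptors upstream changed little. Where 3.83% of all genes rose and 2.35% fell, 1 of 15 genes of the endosomal Toll-like receptors and their adaptors rose and 0 fell. This was Traf6, a ubiquitin ligase gene of the MyD88 pathway, from 9.03 to 10.52 (adjusted p = 0.00379), but its other probes gave responses from -0.26 to 2.01 and their mean did not pass. Myd88 went from 11.62 to 11.80 and Unc93b1, which carries these receptors to endosomes, from 10.18 to 10.06. Irf7, the interferon regulatory factor downstream, had a response of 0.58, against 1.58 in WT. Among the other Toll-like receptors 1 of 9 rose, the flagellin receptor gene Tlr5, from 8.77 to 9.94 (adjusted p = 0.00308). Of 16 interferon genes and receptors, 1 rose, against 3.83% of all genes. It was Ifna1, from 4.85 to 5.85 (adjusted p = 0.0103), a dim signal whose call was lost with normexp background correction and in the deposited table. Outside the list, Ifna11, a further interferon alpha gene singled out after its values were seen, rose from 4.95 to 7.86 (response 2.91 ± 0.08, adjusted p = 0.00417), with 4.49 to 5.38 on the other untreated arrays and 8.26 on the IMQ WT array. The interferon alpha genes are near-identical copies, so which of them its 1 probe reads is uncertain.

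Markers of immune cells moved as follows. In bulk skin, more cells of a type and more RNA per cell cannot be told apart. Of 14 T cell genes 4 rose and 0 fell, 7 passed against the untreated arrays, and the median response was 0.94. The median level of the list was 9.66 on the IMQ Tlr9-/- array and 8.73 to 8.99 on the untreated arrays. Among them were the adhesion gene Cd2, from 8.95 to 10.13 (adjusted p = 0.0038), the receptor chain gene Cd3e, from 11.14 to 12.31 (adjusted p = 0.0066) and the adaptor gene Skap1, from 8.11 to 9.13 (adjusted p = 0.00361). Cd2, Cd3e and Skap1 were highest in Tlr9-/- among the 7 IMQ arrays. Cd3e and Skap1 lost the call with the mean over probes, and Skap1 also with normexp background correction.

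Ms4a1, which encodes the B cell antigen CD20, rose from 6.13 to 8.60 (adjusted p = 0.00186), and no other of the 4 B cell genes tested rose. Its IMQ level was near the 8.63 of WT and the 8.66 of Tlr7-/-, and above the 7.40 to 7.89 of the 4 arrays on slide 2. Cd207, which encodes langerin of Langerhans cells, rose from 11.04 to 12.17 (adjusted p = 0.00541), 1 of 11 genes in its list. Of 11 neutrophil genes 1 rose, against 3.83% of all genes. It was Retnlg, with a rise of at least 4.03-fold (adjusted p = 0.0138, lost with normexp background correction). S100a8 went from 9.97 to 8.61 and did not pass against the untreated arrays (adjusted p = 0.211). Of the macrophage and monocyte genes 0 of 14 and of the plasmacytoid dendritic cell genes 0 of 9 passed both tests in either direction.

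Epidermal genes showed a narrow change. The 7 keratinocyte markers gave 0 calls. Of 42 differentiation genes 1 rose and 4 fell, with a median response of -0.12. Sprr4, a cornified envelope gene, fell from 9.83 to 5.93 (adjusted p = 0.00171), with 9.65 to 10.23 on the other untreated arrays. Treated WT skin held 7.98, and treated Tlr7-/- and Tlr7-/-Tlr9-/- skin 5.47 to 5.49, so that treated Tlr9-/- skin stood closer to the latter, a difference that did not pass against WT (adjusted p = 0.054). The envelope precursor gene Rptn fell from 7.32 to 4.52 (adjusted p = 0.0066). The gasdermin genes Gsdma2 and Gsdmc fell, the first from 7.76 to a level not well above background, at least 12.4-fold (adjusted p = 0.00136), the second from 7.78 to 6.62 (adjusted p = 0.0377, lost without the untreated WT, Tlr9-/- or Tlr7-/-Tlr9-/- array and with 75th percentile scaling, normexp, the deposited table or no filter). Cnfn, the cornifelin gene, rose from 14.85 to 16.23 (adjusted p = 0.00959).

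Of 30 antimicrobial and stress genes of keratinocytes 0 rose and 1 fell, the envelope gene Sprr1a, from 13.43 to 12.21 (adjusted p = 0.0286, lost without the untreated Tlr9-/- or Tlr7-/-Tlr9-/- array). Padi4, a peptidylarginine deiminase gene outside these lists, fell from 8.20 to 5.37 (adjusted p = 0.00212), the lowest of all 12 arrays, and its fall differed from that of WT by -1.94 (adjusted p = 0.0402). It was singled out after its values were seen.

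The hair follicle gave the largest shifts among the named groups. Krt71, a keratin of the inner root sheath, stood at 13.95 in untreated WT, 15.51 in Tlr7-/-, 13.69 in Tlr9-/-, 11.84 in Tlr7-/-Tlr9-/- and 13.55 in Card14-/- skin. After IMQ it was at 15.28 in WT, 8.30 in Tlr7-/-, 8.88 in Tlr9-/-, 4.96 and 4.26 in Tlr7-/-Tlr9-/-, and 15.16 on both Card14-/- arrays. The 3 genotypes that lack Tlr7, Tlr9 or both were low after IMQ and the other 2 were not. In Tlr9-/- skin the response was -4.81 ± 0.39, and the difference from the untreated arrays was -4.83 ± 1.19 (adjusted p = 0.0364). The probe lies at chr15:101564426-101564485 of mm9.

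Of 11 inner root sheath genes 3 fell, Krt71, Krt25 (from 11.55 to 6.82, adjusted p = 0.0468) and Krt27 (from 11.40 to 7.46, adjusted p = 0.0477), and 9 were below all 5 untreated arrays (81.8%, against 41.8% of all genes). The count of falls was 0 without the untreated WT, Tlr9-/- or Card14-/- array or with no filter on dim probes, and 1 with 75th percentile scaling. The median response was -2.99 in Tlr9-/-, against 1.32 in WT, -5.47 in Tlr7-/-, -2.63 in Tlr7-/-Tlr9-/- and 2.04 in Card14-/-. The untreated arrays were themselves far apart, with list medians between 9.79 and 13.00. For 5 of the 11 genes the response was called smaller than in WT. The response of Krt25 minus that of WT was -6.16 (adjusted p = 0.016), of Krt27 -4.94 (adjusted p = 0.0124), of Krt28 -4.18 (adjusted p = 0.0133), of Krt73 -4.59 (adjusted p = 0.0114) and of the trichohyalin gene Tchh -4.53 (adjusted p = 0.0118). For Krt71 it was -6.14 and did not pass. Each of the calls against WT was lost without any 1 of the repeat IMQ arrays. These sheath genes are active in growing hair. The hair cycle stage of the mice is not given in the labels, and its part in the result was not tested.

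The 31 hair shaft genes gave 0 calls in either direction, with a median response of -0.36, against 1.14 in WT and -3.68 in Tlr7-/-. In 28 of them (90.3%, against 45.0% of all genes) the response was below that of WT. For 12 the smaller response was called, against 0.823% of all genes. Each such call was lost without any 1 of the repeat IMQ arrays. Of 7 stem cell genes of the follicle 2 fell. Lgr5, a Wnt-pathway receptor of these cells, went from 8.91 to 7.31 (adjusted p = 0.00338), though its other probe gave a response of -0.09, and the transcription factor gene Lhx2 from 10.62 to 8.93 (adjusted p = 0.00597). Lhx2 was below its untreated array in every genotype, with responses from -2.49 to -1.14.

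**Figure D3:**
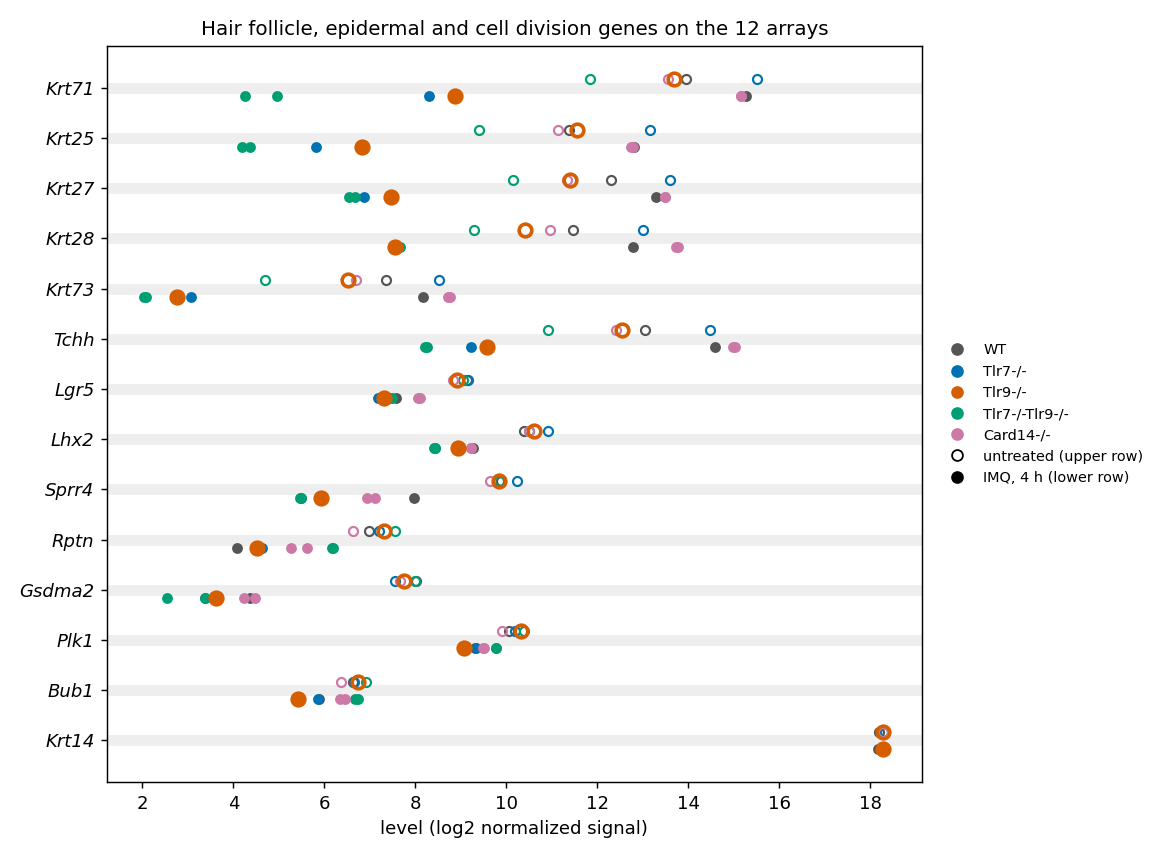
Levels (x axis, log2 normalized signal) of 14 genes of the hair follicle, epidermis and cell division on the 12 arrays, drawn as open circles (5 untreated arrays) and filled circles (7 IMQ arrays) coloured by genotype, with 1 array per point. Krt71 of treated Tlr9-/- skin (8.88) lies with Tlr7-/- (8.30) and below WT (15.28), Gsdma2 separates treated from untreated arrays in every genotype, and Krt14 stays between 18.18 and 18.32 on all 12.

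Cell division genes were lower after IMQ. Of 24 tested 3 fell and 0 rose, 23 were below all 5 untreated arrays (95.8%, against 41.8% of all genes), and the median response was -0.74. The mitotic kinase genes Plk1, Bub1 and Bub1b fell from 10.32 to 9.06 (adjusted p = 0.0144), from 6.75 to 5.42 (adjusted p = 0.0117) and from 7.50 to 6.11 (adjusted p = 0.0221). With 75th percentile scaling, normexp background correction or the deposited table, only Plk1 among the 3 kept the call. The list's median response was -0.53 in WT, -0.64 in Tlr7-/-, -0.22 in Tlr7-/-Tlr9-/- and -0.05 in Card14-/-.

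Markers of pigment cells, fibroblasts and nerve were lower as lists, and part of that was present before IMQ. All 10 melanocyte genes and all 11 fibroblast genes were below the 5 untreated arrays on the IMQ Tlr9-/- array, against 41.8% of all genes. Of the melanocyte genes 2 fell, Slc45a2, at least 1.42-fold (adjusted p = 0.0169), and Oca2, with a response of -1.09 (adjusted p = 0.0393), both dim genes of melanin synthesis. Both lost the call with normexp background correction and in the deposited table, Oca2 also with 75th percentile scaling, with no filter and without the untreated Tlr7-/-, Tlr7-/-Tlr9-/- or Card14-/- array. Of the fibroblast genes Postn, a matrix protein gene, fell from 13.58 to 12.35 (adjusted p = 0.0281), lost without the untreated Tlr7-/- or Tlr7-/-Tlr9-/- array and with the mean over probes. In untreated Tlr9-/- skin, 10 of the 11 fibroblast genes and 7 of the 10 melanocyte genes were already the lowest of the untreated arrays, against 18.3% of all genes. The collagen gene Col1a1 was at 15.01 there, against 16.02 to 17.83 on the other untreated arrays, and at 14.88 after IMQ.

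Of 11 Schwann cell and nerve genes 1 fell, the myelin gene Mag, with a response of -1.04 (adjusted p = 0.00504), and 4 passed as lower against the untreated arrays, with Prx and Sox10 among the others. The other probe of Mag gave a response of 0.99, and its call was lost with 75th percentile scaling, normexp background correction, the deposited table and the mean over probes. Of 27 cholesterol and sebaceous lipid genes 2 fell, against 2.35% of all genes. They were Awat2, a wax synthase gene, from 10.58 to 9.38 (adjusted p = 0.0115) and Dgat2l6 from 10.81 to 9.24 (adjusted p = 0.00707), whose other probe gave a response of 3.30. The clock gene Cry1 rose from 6.88 to 8.74 (adjusted p = 0.0029), with 8.20 to 8.90 on the other IMQ arrays, and its other probe gave a response of -0.58. The lipase inhibitor gene Angptl4, which glucocorticoids induce, rose from 11.57 to 13.25 (adjusted p = 0.0377, lost without the untreated WT or Tlr9-/- array or with no filter). Cry1 lost the call with the mean over probes. It was the only 1 of 19 clock genes to rise, and Angptl4 the only 1 of 14 glucocorticoid-responsive genes, against 3.83% of all genes. The times of day at which skin was taken are not given in the labels.

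**Figure D4:**
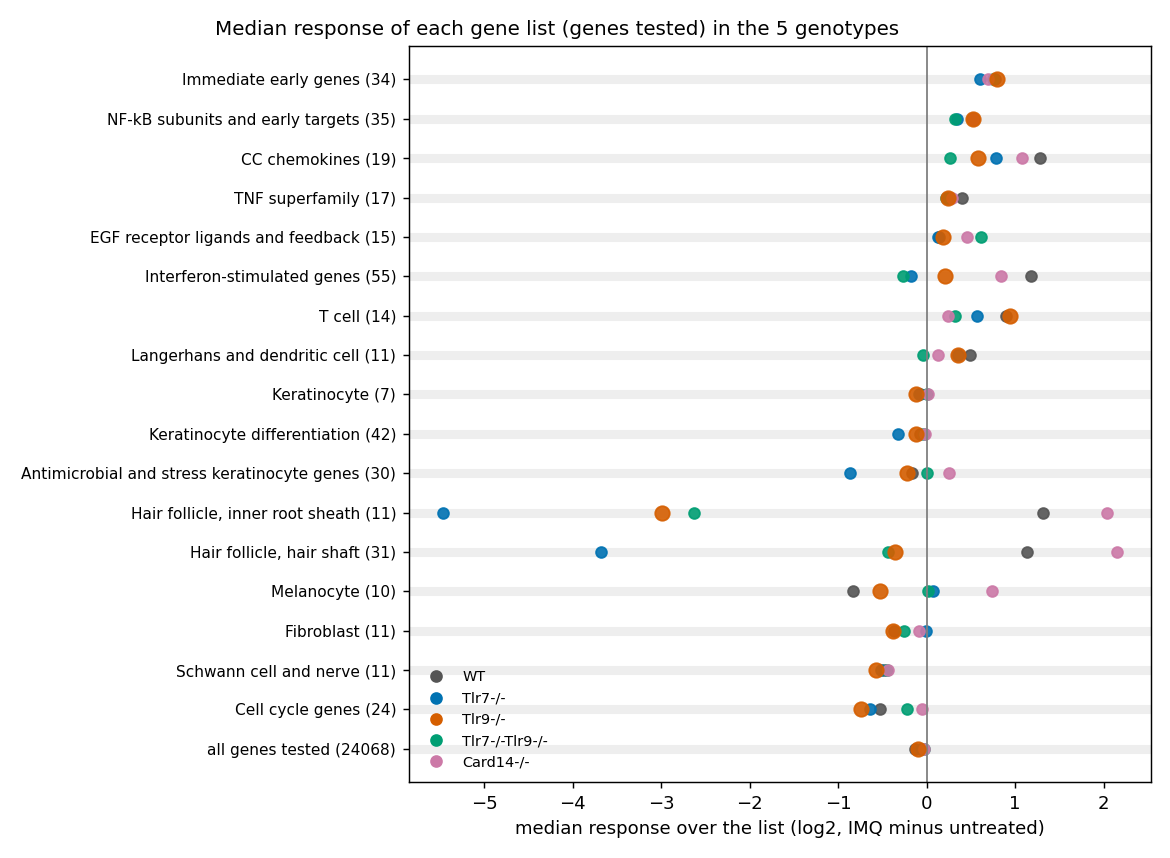
Median response of 17 gene lists and of all genes tested (x axis, log2, IMQ minus untreated; number of genes tested in parentheses), with 1 point per genotype and no error bar. For the interferon-stimulated genes Tlr9-/- (0.21) lies between WT (1.18) and Tlr7-/- (-0.18), for the T cell genes it lies with WT (0.94 and 0.90), and for the inner root sheath it is negative (-2.99) where WT is positive (1.32).

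The largest changes of single probes were of another kind. Of the 15 largest named rises, 9 were read on probes that hold the 7-base repeat GAGAGAG, namely Kcnq1, Pole2, Itga1, Cldn24, Dmrtb1, Prex2, Zfp934, Olfr1097 and Trem3. The potassium channel gene Kcnq1 headed them, at 7.56 before and 12.78 after IMQ (adjusted p = 0.00585), while its other probes gave responses from -0.09 to 0.15. Pole2, a DNA polymerase subunit gene, had 4.94 on this probe and -1.43 on the other. Of the 10 largest named falls, 3 were read on probes with the letters CCACNGTCC. Syt10, a synaptotagmin gene, fell at least 154-fold (adjusted p = 0.00338). Grn, the progranulin gene, fell from 17.64 to 12.26 (adjusted p = 0.000664), and its other probes gave -0.49 to -0.10. Kcnh2, a potassium channel gene, fell at least 7.63-fold (adjusted p = 0.00322) and its other probe gave -0.51.

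The probe stretches are shown because genes of unrelated function share these letters. Each line gives 30 bases of the 60-base probe, with the motif in capitals. The mm9 positions of the whole probes are chr7:150295215-150295274 (Kcnq1), chr12:70322698-70322974 (Pole2), chr13:115821387-115825525 (Itga1), chr8:48916746-48916805 (Cldn24), chr1:11288511-11288570 (Prex2), chr15:89612967-89613026 (Syt10), chr11:102294591-102294650 (Grn) and chr5:23827188-23827460 (Kcnh2), those of Pole2, Itga1 and Kcnh2 with a gap in the genome between their parts.
Kcnq1: gtcaaggagaggGAGAGAGatgctagctcc
Pole2: acatcagcaaattaggGAGAGAGAGAGAGa
Itga1: ttggGAGAGAGAGatcaatgccttgtgtga
Cldn24: GAGAGAGaaggatattcaaggaatgtctag
Prex2: ttgctaggttgGAGAGAGAGgagtgaatga
Syt10: aggCCACCGTCCacaccataaaagcctcca
Grn: atggCCACTGTCCtgctggctattcttgtc
Kcnh2: tgcagacatggCCACTGTCCtacagctgct

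Over all genes tested, 218 were read on a probe with GAGAGAG, and 124 of these (56.9%) rose and 0 fell, against 3.83% and 2.35% of all genes. Of the risen ones 37 had other probes, and in 35 of them those disagreed, that is, had the opposite sign or a response under 50% of the size on 1 or more probes. Of the 179 genes with other probes that rose on a probe without GAGAGAG, 139 disagreed by the same measure, so disagreement was not particular to the repeat. The median response of the 218 was 2.38 in Tlr9-/-, 2.53 in WT, 1.53 in Tlr7-/-, 1.19 in Tlr7-/-Tlr9-/- and 0.82 in Card14-/- skin. In untreated Tlr9-/- skin they differed from the other untreated arrays by a median of 0.13. The reverse complement CTCTCTC was on the probes of 181 genes, of which 8 rose and 22 fell, and CCACNGTCC on those of 27, of which 0 rose and 5 fell. These letters were picked after the values were seen. Without the GAGAGAG probes 799 genes rose and 566 fell. What binds these probes was not tested, and the genes read on them are not described as changed transcripts here.

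**Figure D5:**
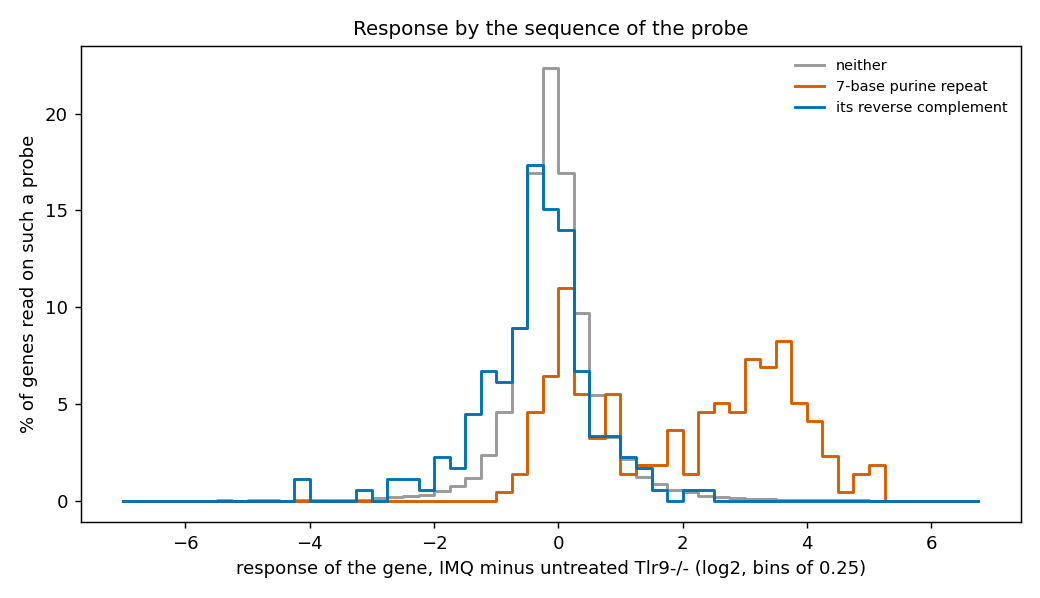
Distribution of the response of single genes in Tlr9-/- skin (x axis, log2, bins of 0.25) as a percentage of the genes in each class of probe (y axis). The 218 genes read on probes with the 7-base repeat spread to above 4 with a median of 2.38, while the genes on probes with neither the repeat nor its complement centre near -0.10.

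The other largest named rises were Cxcl1, Ccl20, Il25, Olfr67, Rgs13 and Mgam. Olfr67, an olfactory receptor gene, was at 5.82 on the IMQ Tlr9-/- array, a rise of at least 3.26-fold. It was at 5.50 on the IMQ Tlr7-/- array and between 1.78 and 2.25 on the other 10. Those 10 levels were below the lowest signal well above background on their arrays, 3.63 to 4.38. Olfr67 thus passed the filter on dim probes only through the arrays where it was high, and its calls rest on a comparison with background signal. Rgs13, a regulator of G protein signalling, was at 6.51 on the IMQ Tlr9-/- array and at most 4.23 on the others, at least 5.27-fold higher than before IMQ (adjusted p = 0.0134), while its other probe gave -1.40. Mgam, the maltase-glucoamylase gene, rose at least 4.47-fold (adjusted p = 0.0131). The falls besides those named above were Rnase12 (at least 4.63-fold), Olfr1466 (at least 4.34-fold), Crygn (at least 3.74-fold) and Wfdc13 (at least 3.48-fold), all not well above background after IMQ. Olfr1466 lost the call without any 1 of 4 untreated arrays, all but Tlr7-/-Tlr9-/-, and with 75th percentile scaling, normexp, the deposited table or no filter. Normexp background correction also ended the calls of Mgam and Crygn, and the mean over probes that of Rgs13.

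Finally, the Tlr9-/- response was set against the responses of the other 4 genotypes taken as replicates of each other. By limma 0 genes passed in either direction (0%), with 656 genes at an unadjusted p under 0.05 and a smallest adjusted p of 0.577. The 4 other responses differed among themselves as widely as Ifit1 shows, from -0.74 in Tlr7-/- to 4.40 in WT, so this test is wide for the interferon-stimulated and follicle genes. A p above the threshold does not show that the Tlr9-/- response was like the others. Against WT alone 70 genes were called as responding more (0.291%) and 198 as responding less (0.823%). For Cxcl1 the 2 responses were 4.07 and 3.62 (adjusted p = 0.157), for Ccl20 3.95 and 4.31 (adjusted p = 0.142) and for Fosl1 2.96 and 2.33 (adjusted p = 0.104).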

How the data were processed

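Levels came from scanner files of 12 one-colour Agilent arrays. Per the file headers, the authors' Feature Extraction 10.7.3.1 made the processed signal, a background-corrected and detrended intensity, and version 10.5.1.1 stands in the submitters' processing notes. The deposited table holds the authors' log2 values, per its comparison with the scanner files, and was used as an alternative. Here log2 intensities were quantile normalized with limma 3.58.1 (R 4.3.3), spots of a probe were averaged, 235 probes with an outlier flag on some array were left out, and 37125 probes remained after a filter that asked for signal well above background on 2 or more arrays. The probe of highest mean signal stood for each gene (24068 in all), and 15937 had a gene symbol.

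Fits used limma with Benjamini-Hochberg adjustment over all genes. The response test had 2 residual degrees of freedom, from the repeat IMQ arrays, and the test against the 5 untreated arrays had 4. The labels name pooled mice, not repeated cultures or experiments, so p-values measure the spread between these arrays only. Where a side was not well above background, a bound ("at least") was computed from the lowest signal well above background. Scripts were tested on simulated data.

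The members and gene lists were chosen with earlier results of these data known. The named genes are the 15 largest rises and 10 largest falls called in both tests, the 5 largest calls in the untreated comparison, the targeted genes and, for each of the lists, up to 4 members with the largest called response and up to 2 well-known ones. Names that are no gene symbol, and probes with a run of 20 purines or pyrimidines, were left out of the largest. Genes named beyond this rule were chosen after their values were seen. Some genes that the rule names are not reported here. Gene names were updated and promoters taken from RefSeq (GRCm38.p6), with 32851 windows for 27025 symbols. Probe positions are those of the scanner files (mm9).

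Alternatives were 75th percentile scaling, normexp background correction with an offset of 50, the deposited table, no filter, the mean over probes, no size limit, a spread from an additive fit, leaving out arrays, and, added after seeing the data, leaving out probes with the repeat GAGAGAG.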

Additional observations from a re-analysis of the deposited data

Results flagged for a closer look

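Among the 5 untreated arrays, 1 array stood apart from the other 4 by Dixon's criterion for 18 of 150 genes checked, where chance gives about 5% of genes not chosen for their values. That rate does not apply here, since Olfr556 and Sntg1 were named for the untreated comparison and others after their values were seen. It was the untreated Tlr9-/- array for 7 genes, each time as the highest: Cxcl9 at 9.07, Cxcl10 at 9.40, Ccl5 at 9.10, Isg15 at 11.24, Iigp1 at 10.84, Olfr556 at 5.10 and Sntg1 at 4.72. The untreated WT array stood apart as the lowest for Kcnq1 at 5.68, Pole2 at 7.46, Dmrtb1 at 5.41, Zfp934 at 7.60 and Olfr1097 at 3.89, which were read on GAGAGAG probes, and for Krt14 at 18.20. It was the highest for Tyrp1, a melanin synthesis gene, at 10.38 and for Tlr4 at 9.56. The untreated Tlr7-/-Tlr9-/- array was the highest for Olfr67 at 2.25 and the lowest for Olfr1466 at 4.17. All 5 untreated levels of Olfr67 were below the lowest signal well above background. The same held for Olfr556 and Sntg1 on the 4 untreated arrays other than Tlr9-/-. The untreated Tlr7-/- array was the highest for Dusp6 at 11.82.

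The response in Tlr9-/- skin differed from that in WT, with limma's adjusted p under 0.05, for 20 of the genes checked, and it was the smaller or more negative one for 17 of them. The Tlr9-/- minus WT difference for interferon-stimulated genes was -3.19 for Iigp1, -2.59 for Gbp2, -2.32 for Igtp, -2.31 for Isg15, -1.99 for Ifit1, -1.56 for Mx2, -1.5 for Cmpk2 and -1.46 for Ifit3. For chemokines it was -3.08 for Cxcl10 and -1.92 for Ccl5. For genes of the inner root sheath it was -6.16 for Krt25, -4.94 for Krt27, -4.59 for Krt73, -4.53 for Tchh and -4.18 for Krt28. It was -1.94 for Padi4 and -7.70 for Sntg1, whose untreated WT level was below the lowest signal well above background. It was positive for Olfr67 at 4.03, though its WT and untreated Tlr9-/- levels were below the lowest signal well above background. It was also positive for Rgs13 at 4.01 and Il1b at 2.37. Each of these calls was lost without any 1 of the 4 repeat IMQ arrays, where 0 genes passed.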

How the results depend on the processing

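Higher and lower genes are given as pairs. In the response test, normexp background correction gave 743 and 167, no size limit 3938 and 5866, and the spread of an additive fit 0 and 0. Lower genes numbered 497 with 75th percentile scaling and 318 in the deposited table. Leaving out 1 repeat IMQ array gave 0 to 1123 higher and 0 to 806 lower. Against the 5 untreated arrays, normexp gave 687 and 143 and no size limit 2477 and 3285, lower genes were 456 with percentile scaling and 278 in the deposited table, and leaving out 1 array gave 1041 to 1106 and 772 to 969. For both tests together no size limit gave 2106 and 2624, the additive spread 0 and 0, lower genes were 250 with percentile scaling, 83 with normexp and 148 in the deposited table, and leaving out 1 array gave 0 to 919 and 0 to 548, with 0 only without an IMQ Card14-/- array. The untreated Tlr9-/- counts were 0 and 0 with percentile scaling, normexp and the deposited table, 185 and 6 without a filter, and 0 to 5 and 0 to 3 with 1 array left out. Against the other 4 genotypes the unfiltered counts were 132 and 49. Against WT, percentile scaling gave 14 and 71, no filter 558 and 704, the additive spread 0 and 0, normexp 350 lower, the mean over probes 42 higher, and every array left out 0 and 0. Dgat2l6 turned with the mean over probes, to a response of 0.86 and 0.74 against the untreated arrays. The median response over all genes was -0.10, and -0.007 with percentile scaling, so falls near the size limit depend on the scaling. The causes were not tested. Of the other values for named genes 1754 kept direction and side of the threshold and 694 lost the call, and of list counts 343 stayed within 1.5 times, 141 became smaller and 28 larger by more than that. No paired analysis was possible because each Tlr9-/- group has 1 array, so the groups share a single replicate number. The 2 residual degrees of freedom and the single array per condition limit the response, and dim genes give bounds only.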

Other observations

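Some groups not described above also lay to 1 side. Of 12 endothelial genes 0 passed both tests, but 9 of them, against 28.1% of all genes, were above all 5 untreated arrays on the IMQ Tlr9-/- array. Their median response was 0.61, against 0.79 in WT, and their median difference from the 5 untreated arrays was 0.37. In untreated Tlr9-/- skin 9 of the 12 were the lowest of the untreated arrays, against 18.3% of all genes, which enters that response. All 11 erythroid and platelet genes were lowest in Tlr9-/- among the untreated arrays, against 18.3% of all genes. The haemoglobin gene Hba-a1 was at 13.29 there, against 13.80 to 14.24 on the other untreated arrays, and at 14.70 after IMQ, a response of 1.41 that did not pass against the untreated arrays (limma adjusted p = 0.109).

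Further genes on probes without the repeats, chosen after their values were seen, were Treml2, a myeloid receptor gene, which rose from 6.04 to 9.37 (adjusted p = 0.00508), and Tmem52b, which rose from 5.39 to 8.75 (adjusted p = 0.00336) and responded by 5.23 in WT. Hhip, which encodes a hedgehog-binding protein, fell at least 3.27-fold (adjusted p = 0.00309) and Nell2 at least 4.46-fold (adjusted p = 0.00136), and both calls were lost with normexp background correction.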
